A study of Mus musculus with 1699 samples.

Results

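Immediate early genes were measured in dissociated and sorted cells of the mouse ventral midbrain. The list held 10 genes, given by symbol: Fos, Fosb, Jun, Junb, Egr1, Egr4, Npas4, Nr4a1, Atf3 and Arc. They are 10 of the 39468 gene entries of each cell and all 10 were found in the files. The level used was the RPKM, the reads of a gene scaled by the length of its transcript and by the reads of the cell. A gene was counted as present in a cell when its RPKM was over 10.

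Immediate early genes are transcribed within minutes of calcium entry, growth factors or stress, from regulators that are already in the cell and without new protein synthesis. In neurons they are widely used as markers of recent activity, and enzymatic dissociation of brain tissue is itself known to induce several of them. Fos, Fosb, Jun and Junb encode subunits of the dimeric transcription factor AP-1. Egr1 and Egr4 encode zinc finger transcription factors, Nr4a1 an orphan nuclear receptor and Atf3 a stress-induced factor of the ATF and CREB family. Npas4 encodes a transcription factor that is mostly restricted to neurons and responds to calcium entry. Arc encodes a protein of the synapse that takes part in the removal of AMPA receptors.

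All cells were sorted for GFP from mice of the Pitx3tm1Mli strain, in which eGFP is knocked into the Pitx3 locus, so every group carried eGFP. Heterozygotes (Pitx3eGFP/wt) were taken as embryos (E13.5, E15.5 and E18.5) and after birth (P1, P7, and P90 as adults), and homozygotes (Pitx3eGFP/eGFP), which lack Pitx3 function, at E13.5 and P1. ERCC spike-in RNA was added at E18.5, at P90, in both homozygote groups and in part of the P1 heterozygote cells. Of 1699 cells 1531 were kept, 1181 of them heterozygote and 350 homozygote, in 9 groups whose sizes stand with the methods. The tissue was dissociated with kits from Miltenyi Biotec up to P7 and with papain from Worthington at P90, and the methods name a different Miltenyi kit for embryos than for P1 and P7, while the sample labels name 1 Miltenyi kit for both. Dissociation and stage therefore cannot be told apart from any earlier stage to P90 and, by the methods, from E18.5 to P1. Stage and spike-in cannot be told apart from E15.5 to E18.5 and from P7 to P90, where it changes from absent to present, and genotype and spike-in cannot at E13.5.

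Several animals stand behind each stage by the methods, but no cell is tied to an animal, so each group counted as 1 sample and no test between groups was possible. Intervals are exact 95% intervals of a share, or Newcombe 95% intervals of a difference, and they cover counting error only. Kept cells held 100007 to 8634201 reads on genes, with group medians from 753256 in E13.5 homozygotes to 2357898 in E13.5 heterozygotes, and no kept cell repeated the counts of another. Every cell was labelled a neuron. Some kept cells, most of them at P1 and P7, had at least 2 markers of astrocytes, of microglia or of endothelial and mural cells, and some had under 3 of 5 neuron markers (Snap25, Syt1, Stmn2, Rbfox3 and Tubb3). Values are therefore given over kept cells and, where it matters, over the 1367 cells called here cells with neuronal markers only. These had at least 3 neuron markers and fewer than 2 of each of the classes just named. Oligodendrocyte-lineage markers were not part of this rule. They were limited only by leaving out cells with at least 3 of them, so a cell with neuronal markers only could still carry fewer. All but 3 P90 cells were of this kind, while at P7 45 kept cells had markers of other classes and 36 had under 3 neuron markers.

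By the GENCODE vM21 annotation of GRCm38, Fos lies at chr12:85473890-85477273 on the plus strand, Fosb at chr7:19302696-19310051, Jun at chr4:95049034-95052222, Junb at chr8:84974484-84978718 and Egr4 at chr6:85511121-85513589, all 4 on the minus strand. Npas4 lies at chr19:4984355-4990316 and Arc at chr15:74669083-74672570 on the minus strand, Nr4a1 at chr15:101254269-101274795 on the plus strand and Atf3 at chr1:191170296-191218039 on the minus strand. Opposite-strand genes in the files overlap Jun (Junos), Junb (Prdx2) and Atf3 (Gm24748), and Smart-seq2 keeps no strand, so reads in the shared stretches cannot be told apart.

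Activity-induced transcription of many of these genes runs through the factor CREB, which binds the sequence TGACGTCA or its core TGACG. Promoters are shown here because the genes were present together in single cells, with every TGACG or CGTCA, the core on either strand, in capitals. Each run holds 250 bases before the start that RefSeq gives the gene on GRCm38.p6, 5′ to 3′ on the strand of the gene. For the 3 genes printed this start is also that of the GENCODE bounds above. The Fos promoter is chr12:85473640-85473889 (plus strand), the Egr4 promoter chr6:85513590-85513839 (minus strand) and the Jun promoter chr4:95052223-95052472 (minus strand).
Fos: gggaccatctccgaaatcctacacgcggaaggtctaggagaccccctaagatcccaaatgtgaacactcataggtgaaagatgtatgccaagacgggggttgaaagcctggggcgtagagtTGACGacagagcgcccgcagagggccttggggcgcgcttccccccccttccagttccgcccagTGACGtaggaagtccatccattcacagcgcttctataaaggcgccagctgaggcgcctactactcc
Egr4: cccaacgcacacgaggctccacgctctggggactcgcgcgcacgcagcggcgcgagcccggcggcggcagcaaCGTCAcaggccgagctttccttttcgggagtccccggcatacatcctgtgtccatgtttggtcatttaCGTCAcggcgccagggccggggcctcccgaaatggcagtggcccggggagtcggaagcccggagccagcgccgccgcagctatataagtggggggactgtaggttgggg
Jun: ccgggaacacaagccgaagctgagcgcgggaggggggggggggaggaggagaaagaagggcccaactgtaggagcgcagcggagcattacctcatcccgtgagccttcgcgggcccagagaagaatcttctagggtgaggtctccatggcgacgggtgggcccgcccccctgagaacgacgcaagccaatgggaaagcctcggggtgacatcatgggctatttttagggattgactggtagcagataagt

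Fos held 2 matches, Egr4 held 2 and Jun held none. Of the 8 members used from the RefSeq promoters, 7 held at least 1 match: Fos, Fosb, Junb, Egr4, Npas4, Nr4a1 and Atf3. Nr4a1 held 4 and Npas4 held 2. The RefSeq start used for Nr4a1 lies 12577 bases inside its GENCODE bounds, that for Atf3 34706 bases and that for Npas4 345 bases, so these windows are not upstream of the outermost GENCODE start. Of all 32851 promoters of the same length, 17.8% held a match. These were not chosen for a base composition like that of the members. The full palindrome TGACGTCA was in 0 of the 8 and in 1.55% of all promoters, and the AP-1 sequence TGANTCA in 0 of the 8 and in 6.75%, both strands being covered since these letters read the same on each. The CArG box, the sequence bound by serum response factor, was in 0 of the 8 and in 1.47%. Only the 250 bases before each start were searched, and no mismatch was allowed. A 0 therefore does not show that a gene lacks the sequence further upstream or a variant of it within the window. Arc and Egr1 promoters were not used here. A match is a run of letters and no measured site, and no binding was measured here.

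The first question was at which stage the genes were present. In heterozygotes, 10 of 10 members had their highest share of cells over RPKM 10 at P90, whether the P1 cells with and without spike-in were pooled or kept apart. Of the 17976 genes whose mean RPKM reached 1 in any heterozygote group, 34.4% had their highest share at P90, where the median cell had 27.8% of genes detected, against 20.4% to 24.6% in the earlier heterozygote groups. Fos was over RPKM 10 in 74% of P90 cells (68.8 to 78.7), Jun in 66.6%, Egr1 in 61.9%, Junb in 60.1% and Npas4 in 55.1%. Nr4a1 was over it in 40.9%, Arc in 39.9%, Fosb in 39.6%, Atf3 in 15.8% and Egr4 in 13.9%. Against P7, the 10 shares were higher by 10.3 (Jun) to 55.1 percentage points (Npas4), and 10 of 10 intervals of the difference lay above 0. Of 16371 genes tested in that comparison, with a mean RPKM of at least 1 in either group, 33% had such an interval and 12.7% were higher by at least 20 points, against 7 of the 10 members. The median difference was 25.7 points for the members and 2.20 for all genes tested. Against the P1 heterozygote cells that had spike-in as the P90 cells did, the shares were higher by 11.8 (Egr4) to 60.2 points (Fos), and 10 of 10 intervals lay above 0, against 24.7% of 15265 genes.

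**Figure D1:**
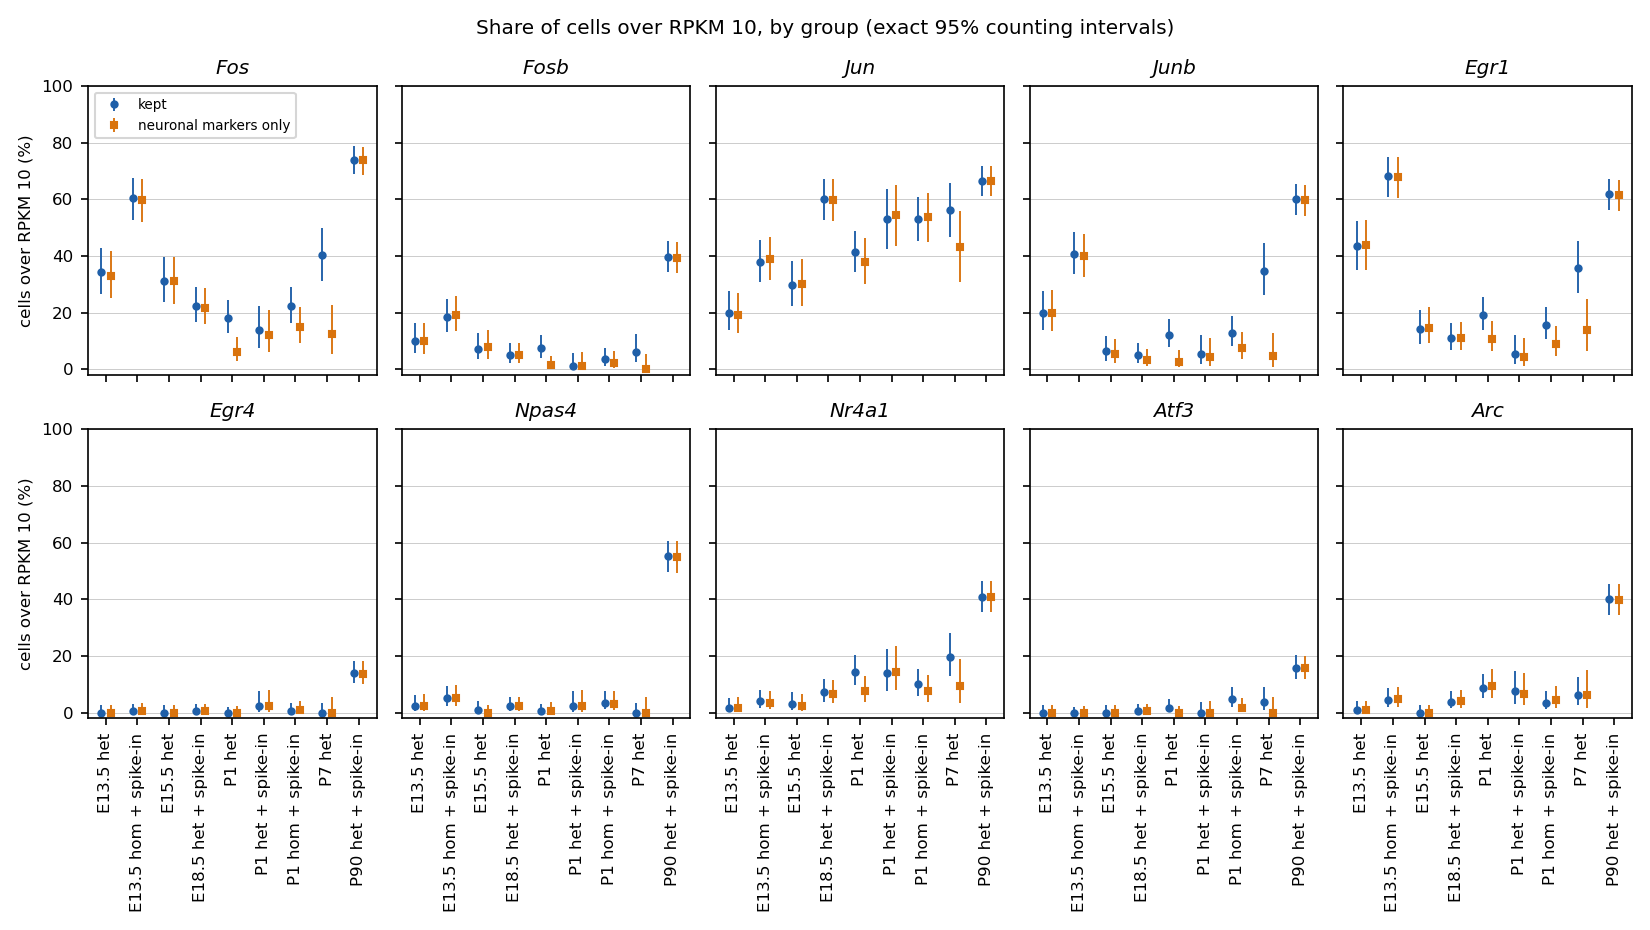
Share of cells over RPKM 10 (vertical axis, %) for each of the 10 genes in the 9 groups of cells (het, Pitx3eGFP/wt; hom, Pitx3eGFP/eGFP; spike-in, ERCC RNA added), over kept cells (circles) and cells with neuronal markers only (squares), with exact 95% counting intervals. P90 is the highest heterozygote group for each gene, and at P7 the kept cells lie above the cells with neuronal markers only for Fos, Junb and Egr1.

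Levels in single P90 cells ran from 0 upward for each gene. Fos had a median RPKM of 254.8 and a highest of 3952, Egr1 of 34.3 and 1753, Jun of 41.7 and 739, and Junb of 29.1 and 1142. Fos was therefore the member with the highest level as well as the largest share. Nr4a1 had a median of 0.927 and a highest of 1552, Fosb of 1.87 and 260.1, and Atf3 of 0 and 694.7. Among cells over RPKM 10 the median was 592 for Fos, 158.1 for Egr1, 110.9 for Npas4, 92.3 for Atf3 and 26.3 for Egr4. Atf3 was thus in few cells, but not at a low level in them.

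By plate (1, 2, 4 and 5), Fos was over RPKM 10 in 66.7%, 71.7%, 81.7% and 77.8% of P90 cells and Npas4 in 49.5%, 56.5%, 58.1% and 57.8%. Egr4 was over it in 15.1%, 20.7%, 7.53% and 11.1%, and Atf3 in 16.1%, 19.6%, 12.9% and 13.3%. Each plate was above each earlier heterozygote group for these 4 genes. This did not hold for Jun, which was in 58.1% of cells of plate 1, against 60.1% at E18.5, and in 70.7%, 69.9% and 68.9% in the other plates.

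Npas4 and Egr4 were over RPKM 10 in few cells before P90. Npas4 was over RPKM 10 in 0 cells at P7, which allows a share of up to 2.68%, in 0.532% at P1 without spike-in and in 2.13% with it, in 2.19% at E18.5, in 0.709% at E15.5 and in 2.14% at E13.5. Its RPKM in single P90 cells ran from 0 to 856, with a median of 31.5, while the highest P7 cell had 4.66. Egr4 was over the threshold in 0 heterozygote cells of E13.5, E15.5, P7 and P1 without spike-in, in 0.546% at E18.5 and in 2.13% at P1 with spike-in. At P90 Egr4 was over it in 13.9% (10.3 to 18.2), where its highest cell had an RPKM of 283.6. P90 stood above each earlier heterozygote stage for both genes, and no step between neighbouring earlier stages had an interval that left out 0.

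Arc, Fosb and Atf3 were also in the largest share of heterozygote cells at P90. Arc was over RPKM 10 in 0.714% of E13.5 heterozygote cells, 0% at E15.5 (which allows up to 2.13%), 3.83% at E18.5, 8.51% and 7.45% at P1 without and with spike-in and 6.25% at P7, before 39.9% at P90 (34.6 to 45.5). Its median RPKM at P90 was 0.724 and its highest 1442, so that most of its level came from a minority of cells. Fosb was over the threshold in 10% of cells at E13.5 (5.58 to 16.2) and in 1.06% to 7.45% in the heterozygote groups from E15.5 to P7, and in 39.6% at P90. Atf3 was listed at RPKM 0 in each heterozygote cell of E13.5 and E15.5, was over 10 in 3.57% at P7 and reached 15.8% at P90.

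Fos, Egr1 and Junb were present in a part of the embryonic cells. The heterozygote share of Fos was 34.3% (26.5 to 42.8) at E13.5, then 31.2% at E15.5, 22.4% at E18.5, 18.1% and 13.8% at P1 without and with spike-in and 40.2% at P7. That of Egr1 was 43.6% (35.2 to 52.2) in E13.5 cells and 14.2% (8.88 to 21.1) in E15.5 cells, followed by 10.9% at E18.5, 19.1% and 5.32% at P1 without and with spike-in and 35.7% at P7. Junb began at 20% in E13.5 heterozygotes and had 6.38% at E15.5, 4.92% at E18.5, 12.2% and 5.32% at P1 without and with spike-in and 34.8% at P7. From E13.5 to E15.5 the share of Egr1 differed by -29.4 points (-39 to -19) and that of Junb by -13.6 points (-21.6 to -5.77), while 11.1% of 14772 genes had an interval below 0. These were the 2 of 10 members with an interval below 0, and 0 members had one above it, against 5.04% of genes. Among cells with neuronal markers only, 1 member had one above it, against 4.96% of genes. This was Jun, at 19.2% and 30.2% (11 points, 0.479 to 21.2). Of the 10 members, 6 were among the genes tested in either set of cells.

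Jun had an order of its own. It was over RPKM 10 in 20% of E13.5 heterozygote cells, 29.8% at E15.5, 60.1% at E18.5 (52.6 to 67.3), 41.5% and 53.2% at P1 without and with spike-in, 56.2% at P7 and 66.6% at P90. From E15.5 to E18.5 its share was 30.3 points higher, one of 2 members with an interval above 0, in a comparison where 42.8% of 15053 genes had one. The other was Arc, at 3.83 points, and 7 of the 10 members were among the genes tested. The E15.5 cells had no spike-in and the E18.5 cells had it, and the share of Jun at P1 was 11.7 points higher with spike-in, with an interval that held 0 over kept cells and left it out with neuronal markers only. Jun at E18.5 was in 60% and 60.2% of the cells of the 2 plates, and at the same stage Fosb, Junb and Egr4 were each in under 5% of cells. At P90 the share of Jun was 10.3 points above P7 (0.00931 to 20.8), the smallest difference of the 10.

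Nr4a1 was over RPKM 10 in 1.43% of E13.5 heterozygote cells, 2.84% at E15.5, 7.10% at E18.5, 14.4% and 13.8% at P1 without and with spike-in, 19.6% at P7 and 40.9% at P90 (35.5 to 46.4). P90 lay 21.2 points above P7 (11.4 to 29.5), and over kept cells no step between neighbouring earlier stages had an interval that left out 0. In cells with neuronal markers only the step from E18.5 to P1 with spike-in had one, from 6.70% to 14.4% (7.74 points, 0.305 to 16.9). Nr4a1 was the 1 member above 0, with 8 of the 10 tested, in a comparison where 4.61% of genes were.

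For Egr1, Jun and Junb the mean level over kept cells gave the opposite order of P7 and P90 to the share of cells, and for the other 7 genes the same order. Over kept cells the mean RPKM of Fos was 614.5 at P90 and 544.9 at P7, that of Egr1 173.2 and 176.3, that of Jun 96.1 and 127.6 and that of Junb 96.7 and 165.5. Over the cells with neuronal markers only, the mean of Fos was 611.7 at P90 and 10.2 at P7, that of Junb 96.9 and 1.27, that of Egr1 169.9 and 3.23 and that of Jun 96.4 and 36.5. The level of these 4 genes at P7 was therefore mostly in cells that carried markers of other classes or few neuron markers.

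The P7 step showed the same split. From P1 to P7 without spike-in, the shares of Junb (22.6 points), Fos (22.1), Egr1 (16.6) and Jun (14.8) were higher with intervals above 0, 4 of 10 members against 9.5% of 16454 genes tested. With neuronal markers only, 0 of 10 had such an interval, against 4.63% of genes. Of the 10 members, 8 were among the genes tested over kept cells and 6 with neuronal markers only. At P7 with neuronal markers only (n = 65), Fos was over RPKM 10 in 12.3% of cells, Junb in 4.62%, Egr1 in 13.8% and Fosb in 0. The difference between P90 and P7 then ranged from 13.8 points (Egr4, 7.24 to 18) to 61.4 points (Fos, 50.1 to 68.9), and 10 of 10 intervals lay above 0, against 24.6% of genes.

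Cells with markers of other classes at P1 and P7 held several of the genes. The cells of both stages are pooled here and include P1 homozygotes. Of 100 such cells with astrocyte markers, Fos was over RPKM 10 in 67%, Jun in 60%, Junb in 56%, Egr1 in 55% and Nr4a1 in 29%, whereas Npas4 was over it in 1 cell, Egr4 in 0 and Arc in 4. In the oligodendrocyte-like cells of P1 and P7, which were left out of all other values, Jun was over it in 71.2%, Egr1 in 66.7% and Fos in 64%, and Npas4 in 0, which allows up to 2.70%. Of 437 cells with neuronal markers only, Jun was over it in 46.9%, Fos in 11%, Egr1 in 9.38%, Nr4a1 in 9.15%, Arc in 6.86% and Npas4 in 1.60%. The pooled groups differed, with Fos in 80% of the astrocyte-marker cells of P7 and in 48.3% of those of P1 homozygotes. Atf3 was over it in 8 of 13 cells with microglia markers. At P90 the microglia markers C1qa, C1qb and Tyrobp, the astrocyte markers Aqp4 and Gja1 and the oligodendrocyte markers Olig1 and Sox10 were at RPKM 0 in the kept cells, and the summed astrocyte markers ran from 0 to 91.8 with a median of 0, against 0 to 21606 with a median of 11.1 at P7. The summed RPKM of the 10 oligodendrocyte-lineage markers ran from 0 to 3630 at P90 with a median of 1.19, and to 5038 with a median of 49.5 at P7, and the most frequent of them was over RPKM 10 in 24.8% of P90 cells. The 6 microglia markers summed to at most 84.2 and the 5 endothelial and mural markers to at most 136.9 at P90. The part of these cells in the results was not tested beyond the values without them.

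The next question was whether the genes were present in the same cells. At P90, 54.5% of cells (48.9 to 60) had at least 5 of the 10 genes over RPKM 10, against 15.2% at P7, 7.98% and 1.06% at P1 without and with spike-in, 0% at E18.5 (which allows up to 1.64%), 0.709% at E15.5 and 1.43% at E13.5. P90 lay 39.3 points above P7 (29.8 to 47). With neuronal markers only, the share was 54.4% at P90 and 1.54% at P7. Of the 63 cells before P90 with at least 5 genes, 36 carried markers of another class, and 27 had neuronal markers only, 21 of which were E13.5 homozygote cells.

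**Figure D2:**
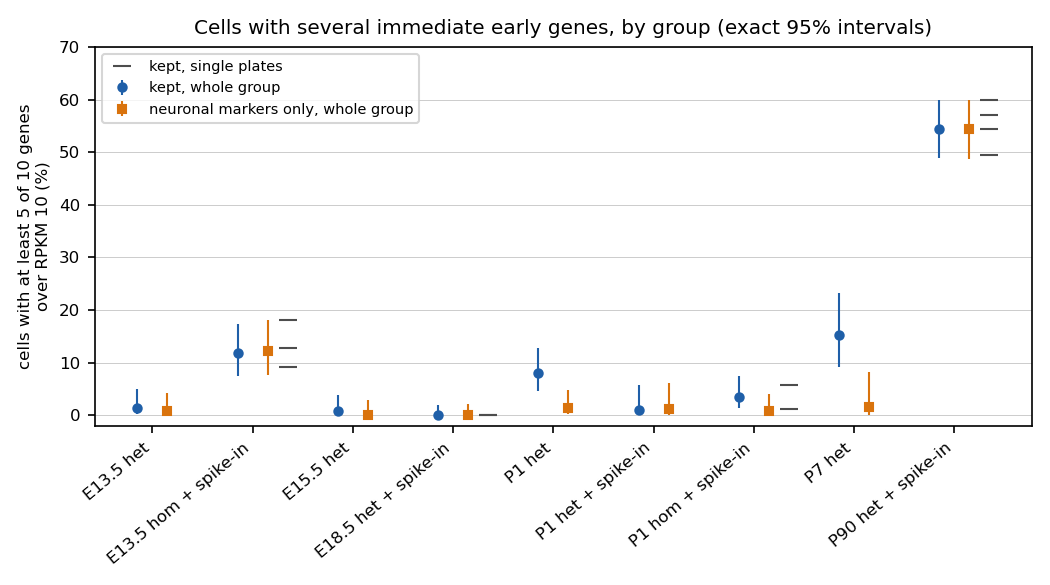
Share of cells with at least 5 of the 10 genes over RPKM 10 (vertical axis, %) by group, over kept cells (circles) and cells with neuronal markers only (squares) with exact 95% counting intervals, and over kept cells of single plates (dashes, where titles give a plate). The P90 plates lie between 49.5% and 60%, and each earlier group lies below 20%.

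P90 cells were spread over the whole range of counts rather than around a middle value. None of the 10 genes was over RPKM 10 in 13.6% of cells. In all, 26.6% had 0 or 1 gene, 18.9% had 2 to 4, 15.5% had 5 or 6 and 39% had 7 to 10, and 9 cells had all 10. Before P90 no cell had more than 7. The 4 P90 plates had 49.5%, 54.3%, 57% and 60% of cells with at least 5 genes, and the intervals of all 4 overlapped. With the cells ordered by reads in 3 parts, the shares were 42.6% in the lowest, 58.3% in the middle and 62.6% in the highest, and 53.6% over all cells after each was thinned to 100000 reads.

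**Figure D3:**
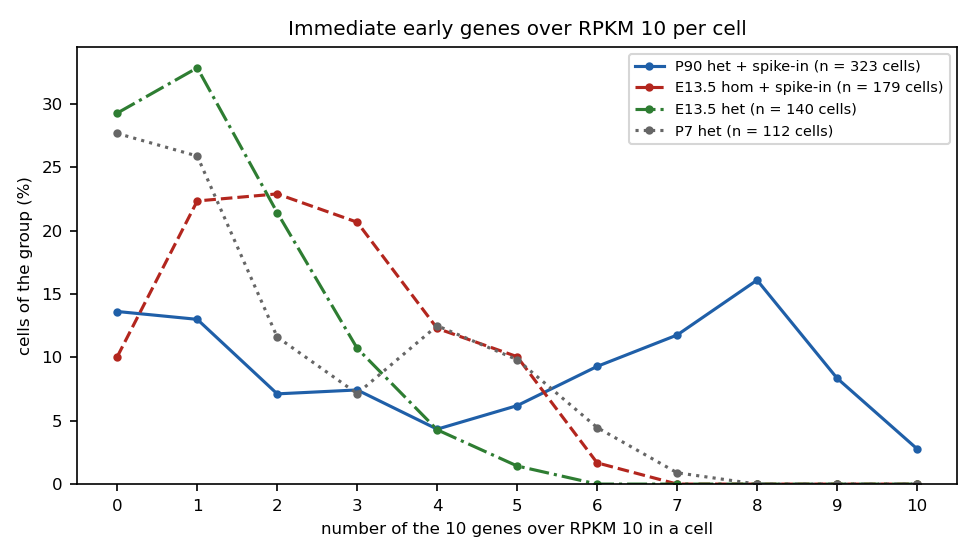
Number of the 10 genes over RPKM 10 in a cell (horizontal axis) against the share of cells (vertical axis, %) among kept cells of P90, P7 and both E13.5 groups (lines). P90 has cells at each number from 0 to 10, with 39% of them at 7 or more.

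Levels of the genes were correlated across P90 cells. Pearson's r of log2(RPKM + 1) was taken within each plate, over cells that share plates and differ in depth, and is a description. The median over 45 pairs was 0.55, from 0.27 (Egr4 and Atf3) to 0.81 (Fos and Egr1). Egr1 was over RPKM 10 in 78.7% of cells with Fos over it and in 14.3% of the others, and Npas4 in 72% and 7.14%. Every P90 cell with Fosb or with Atf3 over the threshold also had Fos over it. The median was 0.64, 0.55, 0.48 and 0.50 in the plates 1, 2, 4 and 5.

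Elsewhere the median r over all pairs that could be computed was between -0.02 and 0.14 from E13.5 to P1 and 0.31 at P7, where Fos and Egr1 reached 0.88 and Fos and Junb 0.83. With neuronal markers only, the P7 median was 0.09. Several genes were near 0 in the earlier groups, and over the 15 pairs of Fos, Fosb, Jun, Junb, Egr1 and Nr4a1 the median was 0.53 at P1 without spike-in and 0.49 at P7, against 0.71 at P90. These were 0.15, 0.10 and 0.71 with neuronal markers only. In the other groups the median over these 15 pairs was lower over kept cells, from 0.05 at E18.5 to 0.23 in P1 homozygotes. It was 0.07 at P1 with spike-in. Over all 59661422 pairs of the 10924 genes in at least 10% of P90 cells, the median r was 0.03 and 0.00352% of pairs were over 0.5, against 57.8% of the member pairs. In P90 cells the mean member level had an r of 0.38 with the number of genes detected, 0.15 with log2 reads, -0.25 with the share of mitochondrial reads and -0.47 with the share of reads on Gm42418, an entry that took a median of 17% of reads. The r with the share of mitochondrial reads had the other sign at P7 (0.54) and in P1 homozygotes (0.25). With cells thinned to 100000 reads, the median over the 45 pairs was 0.53, and without the reads of Gm42418 it was 0.55. The part of the number of genes detected and of mitochondrial reads was not tested.

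**Figure D4:**
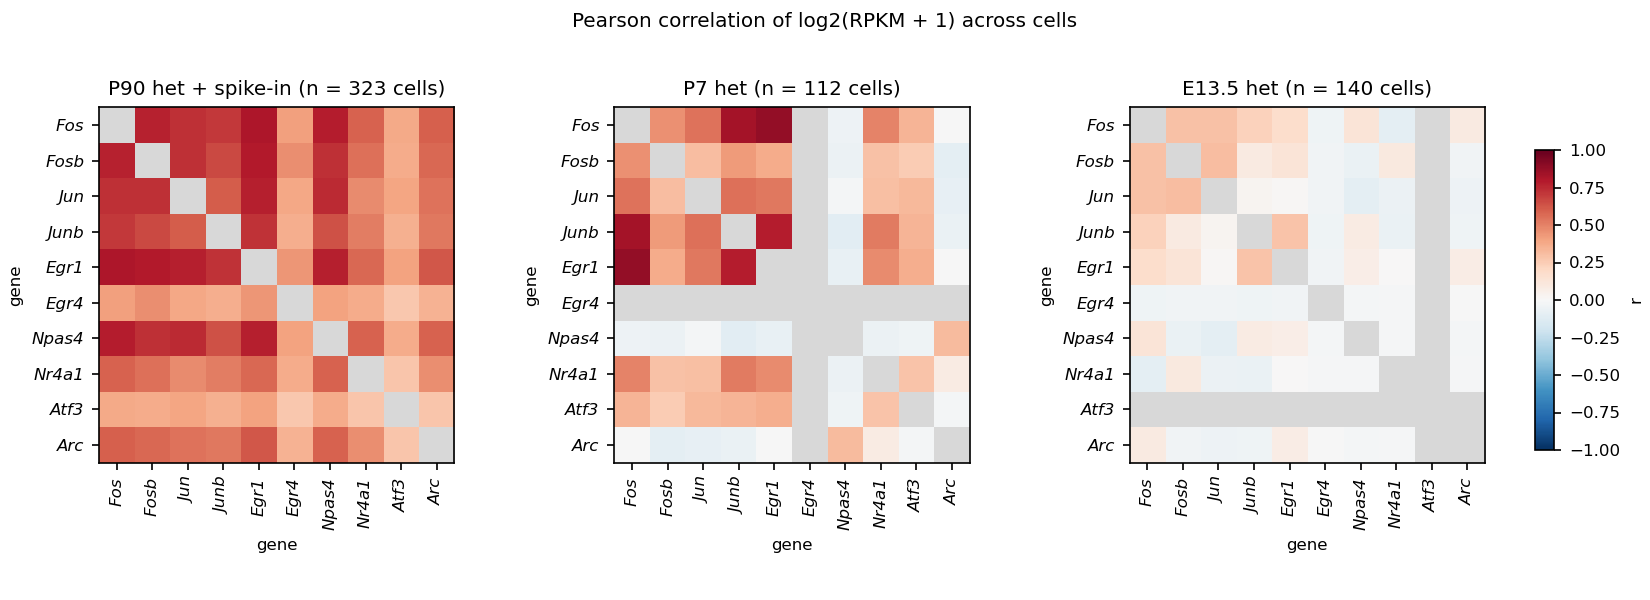
Pairwise Pearson correlations of log2(RPKM + 1) between the 10 genes (both axes) across kept cells of P90 (within plates), P7 and E13.5 heterozygotes, coloured from -1 to 1, with grey where a gene was at 0 in each cell and on the diagonal. P90 has all 45 pairs above 0, with a median of 0.55, and P7 has its highest at Fos and Egr1 (0.88).

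The genes most alike to the mean member level at P90, named by the highest r over the P90 cells, were Hspa1a (0.82), Dusp1 (0.78), Btg2 (0.72), Dnajb1 (0.72), Leng8 (0.61), Hspa1b (0.60), Gm26917 (0.59), Irf2bpl (0.57), Nfil3 (0.56) and Ier2 (0.56). Hspa1a, Hspa1b and Dnajb1 encode heat shock proteins, and Dusp1 encodes a phosphatase of MAP kinases. Hspa1a and Hspa1b are near-identical copies. By the methods only uniquely mapping reads were kept, so reads common to both copies may be missing. The lowest r were those of Rn7sk (-0.50), Ndufa4 and Cox6b1 (-0.48 each), and the median over all genes was 0.07.

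Other genes of the response were read from lists. Of 22 other rapid genes tested between P90 and P7, 6 were higher by at least 20 points and 1 was lower, with a median of 3.52 points against 2.20 over all genes. Of 10 later activity genes, 4 were higher and 0 lower (median 15.8), of 8 heat shock genes 4 and 0 (15.2), of 5 injury and integrated stress genes 1 and 0 (11.2), and of 8 upstream regulators 1 and 0 (-2.92). Backgrounds over all genes were 12.7% higher and 3.08% lower. With neuronal markers only, 7 of 20 rapid genes tested were higher and 0 lower (median 11.8 points), 4 and 0 of the later genes (5.37), 4 and 0 of the heat shock genes (16.6), 1 and 0 of the stress genes (-0.31) and 1 and 1 of the regulators (-0.64), against a median of 1.71 and backgrounds of 9.68% higher and 3.57% lower. The median of the stress genes thus changed sign. In each list the 3 genes in most P90 cells are named, a choice that favours a higher share at P90 than at P7. Their r with the mean member level over P90 cells ran from -0.24 (Gap43) to 0.78 (Dusp1). Among the rapid genes, Rgs2, a regulator of G protein signalling, was over RPKM 10 in 76.2% of kept P90 cells and 41.1% of kept P7 cells, Gadd45g in 69.3% and 36.6% and Dusp1 in 67.5% and 30.4%. Among later genes the shares were 99.7% and 67.9% for Scg2 (secretogranin II), 67.2% and 42% for Plk2 and 53.6% and 22.3% for Nfil3. The heat shock genes Hspa8, Hsp90aa1 and Hspa5 were over it in 97.3% or more of the cells of both stages, so their shares could not be much higher at P90. The 4 that were higher, named after their values were seen, were Hspa1a (70% and 20.5%), Hspa1b (21.7% and 0), Dnajb1 (88.2% and 58.9%) and Hsph1 (97.2% and 63.4%). Of stress genes, Gap43 was at 99.7% and 84.8%, Atf4 at 96% and 84.8% and Ddit3 at 82% and 31.2%, and of the regulators Crtc1 was at 52.3% and 64.3%, Mef2d at 50.5% and 28.6% and Mef2a at 42.4% and 34.8%. All these shares are over kept cells, of which 45 at P7 had markers of other classes and 36 under 3 neuron markers. Shares of the named genes with neuronal markers only are not given, and the part of those cells was not tested.

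Genotype was compared at P1 among cells with spike-in. Egr1 was over RPKM 10 in 15.8% of homozygote and 5.32% of heterozygote cells, a difference of 10.5 points (2.42 to 17.4), and Atf3 in 4.68% and 0, a difference of 4.68 points (0.134 to 8.96). These were 2 of 10 members with an interval above 0, against 5.82% of 15856 genes tested. With neuronal markers only, 0 of 10 had one, against 5.59%. Of the 10 members, 9 were among the genes tested over kept cells and 7 with neuronal markers only. Markers of other classes were in 37 of the kept homozygote cells and in 3 of the heterozygote cells with spike-in. The share of cells with at least 5 genes was 3.51% and 1.06%, a difference of 2.44 points (-2.64 to 6.48), and 0.746% and 1.11% with neuronal markers only, a difference of -0.36. Over kept cells it was 1.18% in homozygote plate 1 and 5.81% in plate 2, and the difference was 0.113 points without plate 2 and 4.75 without plate 1.

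At E13.5, homozygote cells had higher shares of 4 AP-1 genes and of Egr1 than heterozygote cells. Fos was over RPKM 10 in 60.3% and 34.3% (26 points, 15.1 to 36.1), Egr1 in 68.2% and 43.6% (24.6 points), Junb in 40.8% and 20% (20.8 points), Jun in 38% and 20% (18 points) and Fosb in 18.4% and 10% (8.44 points). Intervals lay above 0 for 5 of 10 members, against 15.5% of 14563 genes tested, and for the same number with neuronal markers only, against 14.7%. In both sets of cells 8 of the 10 members were among the genes tested. At least 5 genes were over RPKM 10 in 11.7% and 1.43% of cells (10.3 points, 4.95 to 15.9, and 2.79 points at an RPKM over 50), and in 9.20%, 18.2% and 12.9% of the homozygote plates 4, 5 and 6. The homozygote cells also had spike-in, and their median reads were 493208, 276442 and 1564616 in these plates, against 2357898 in heterozygotes. With cells thinned to 100000 reads, the share with at least 5 genes was 11.7% and 1.43%, Fos was in 60.3% and 33.6% and Egr1 in 68.2% and 45%. Genotype and spike-in cannot be told apart here.

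At P1, where heterozygote cells were prepared in both ways, 2 members had a lower share with spike-in. The share of Fosb differed by -6.38 points (-11.1 to -0.813) and that of Egr1 by -13.8 points (-20.7 to -5.61), 2 of 10 members against 4.28% of 16084 genes tested with an interval below 0. With neuronal markers only, 0 members had an interval below 0, against 2.77% of genes, and 1 had one above it, against 17% of genes. This was Jun, at 54.4% with and 37.8% without spike-in (16.6 points, 3.58 to 29). Of the 10 members, 9 were among the genes tested over kept cells and 7 with neuronal markers only. The share of cells with at least 5 genes differed by -6.91 points (-11.8 to -1.28), and by -0.240 with neuronal markers only. The P1 cells without spike-in held 34 cells with markers of other classes and those with spike-in 3.

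Within P90, cells were set apart by Slc6a3 (the dopamine transporter), Nxph4 (a secreted neurexophilin) and Gad2 (an enzyme of GABA synthesis), each at an RPKM over 150. Cells with both Nxph4 and Slc6a3 (2 cells) were left out of those classes, Gad2 cells had no Slc6a3 over 150, and some cells were in both the Nxph4 and the Gad2 class. Cells with Nxph4 had at least 5 genes over RPKM 10 in 59.6%, cells with Gad2 (n = 78) in 64.1% and cells with Slc6a3 (n = 69) in 33.3%. From in situ RNA sequencing, in situ hybridization and immunohistochemistry, the authors infer that their groups high in Slc6a3 are underrepresented among the sequenced cells. The pooled P90 shares therefore may not weigh the classes as the tissue does. As the most likely explanation the authors give a greater sensitivity of long-projecting, TH-expressing neurons to dissociation and sorting. Whether such a loss bears on the shares of these classes was not tested. Nxph4 cells lay 26.3 points above Slc6a3 cells (12.3 to 38.6), at median reads of 1756113 and 1844421. The difference was largest for Junb, at 69.9% and 31.9% (38 points, 24.2 to 49.7), then for Fos, at 84.3% and 49.3% (35.1 points), Npas4, at 63.3% and 33.3% (29.9 points), and Egr1, at 66.3% and 40.6% (25.7 points). Intervals lay above 0 for 7 of 10 members, against 14% of 14966 genes tested, and Jun, Fosb and Egr4 were the other 3.

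**Figure D5:**
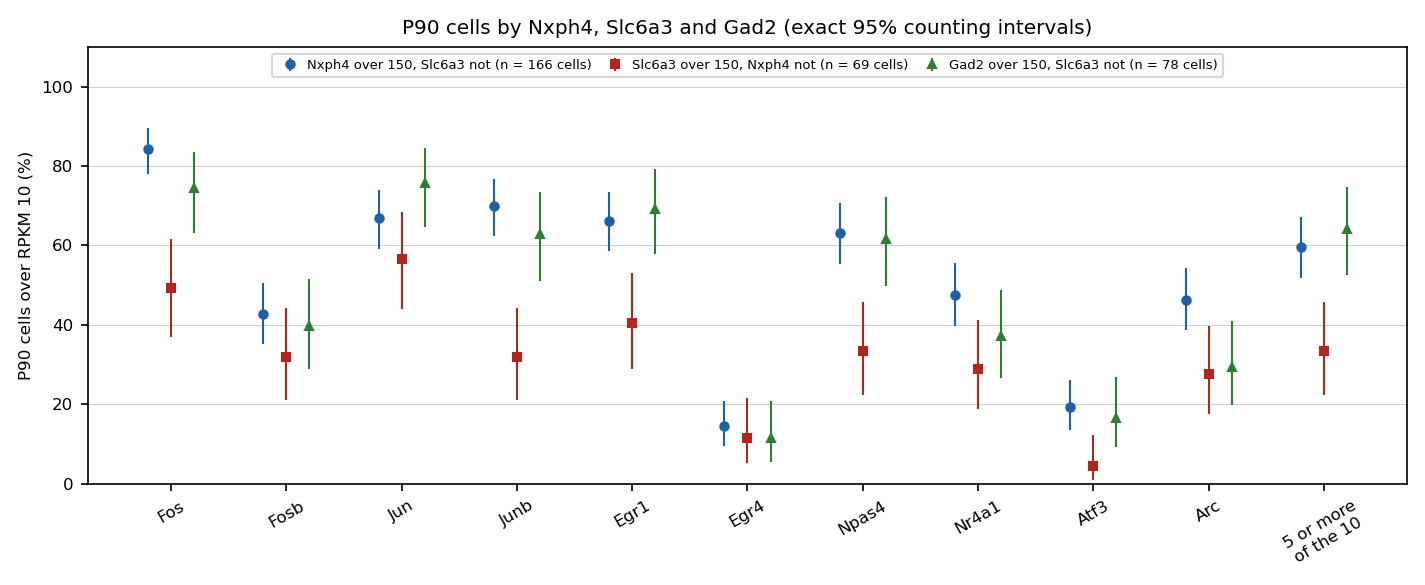
Share of P90 cells over RPKM 10 (vertical axis, %) for each of the 10 genes and for at least 5 of them, in cells with Nxph4 (circles), Slc6a3 (squares) or Gad2 (triangles) at an RPKM over 150, with exact 95% counting intervals. Fos, Junb and Npas4 are lower in the Slc6a3 cells than in the Nxph4 cells, by 29.9 to 38 points.

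The order held in 3 of 4 plates. The share with at least 5 genes was 64.4%, 63.3%, 58.5% and 42.1% of Nxph4 cells in the plates 1, 2, 4 and 5, and 28.6%, 28.6%, 41.7% and 50% of Slc6a3 cells. Plate 5, with 19 and 8 cells, went the other way. An RPKM from 75 to 300 was found for Nxph4 in 76 cells, for Gad2 in 26 and for Slc6a3 in 15, so the Nxph4 class is the one with most cells near its limit. Of cells with Th, the rate-limiting enzyme of dopamine synthesis, over an RPKM of 150, 46.3% had at least 5 genes, against 64.4% of the other cells. In cells with 0 or 1 gene, 43% had Slc6a3 over 150 and 77.9% had Th. Slc6a3 was in 16.4% of cells with 2 to 4 genes, 6% with 5 or 6 and 16.7% with 7 to 10, and Th in 45.9%, 46% and 46.8%, so neither fell steadily with the number of genes.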

How the data were processed

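Single cells were sorted for GFP and made into Smart-seq2 libraries, which hold no molecular identifiers and no strand. The authors aligned reads to the mouse genome with STAR and deposited, for each cell, read counts and RPKM values per gene entry. Both were used as deposited: counts for depth and thinning, RPKM for presence (over 10) and levels. Of 1699 cells, 1674 had over 100000 reads and 1649 also had reads on at least 15% (P90: 3.4%) of 31526 entries. A further 118 with at least 3 of 10 oligodendrocyte-lineage markers over RPKM 10 were left out, leaving 1531, of which 128 had markers of another class and 101 had under 3 neuron markers. Doublets were not called. The authors applied further mapping filters, removed cells that clustered with eGFP-negative cells and kept fewer cells than were kept here. Groups follow the labels for age, genotype and spike-in. The kept cells were 140 (E13.5 heterozygote), 179 (E13.5 homozygote), 141 (E15.5), 183 (E18.5), 188 (P1 without spike-in), 94 (P1 with spike-in), 171 (P1 homozygote), 112 (P7) and 323 (P90). At P90, 166 had Nxph4, 69 Slc6a3 and 78 Gad2 over RPKM 150. Labels tie no cell to an animal, hence there are no p-values, and intervals (exact for shares, Newcombe for differences) cover counting error only. A gene entered a comparison at a mean RPKM of 1 or more in either group, and a count of 0 allows up to 3 counts. Counts of members with an interval off 0 are out of all 10, also where fewer reached that mean. The named genes were the 10 members, the 10 genes most alike to them and 3 per list. Hsph1, a heat shock gene, and Rn7sk, Ndufa4 and Cox6b1, with the lowest r, were also named, after their values were seen. Members and lists were chosen with earlier results of these data known. Python 3.11.15, numpy 2.4.6, scipy 1.17.1 and matplotlib 3.10.9 were used, and the code was tested on simulated data.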

Additional observations from a re-analysis of the deposited data

How the results depend on the processing

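The 10 genes had their highest heterozygote share at P90 under every alternative run. Leaving out other non-neuronal cells moved the difference between P90 and P7 in cells with at least 5 genes from 39.3 to 52.9 points, and neuronal markers only to 52.8. The same 2 settings moved the P1 difference with minus without spike-in from -6.91 to -0.20 and -0.240 points, and the P1 homozygote minus heterozygote difference from 2.44 to -0.353 and -0.365. At RPKM over 50 the E13.5 difference was 2.79 points in place of 10.3. With at least 3 genes it was 28.3 points, and that between P1 genotypes was 9.89. Leaving out each plate gave 38.3 to 41.3 points for P90 minus P7, 21.3 to 30.8 for Nxph4 minus Slc6a3 cells, 9.40 to 12.7 for E13.5, 0.113 to 4.75 for the P1 genotypes, 5.65 to 10.54 for the range of P90 plates and 0.52 to 0.58 for the median correlation. The median correlation was 0.49 by Spearman and 0.53 with a pseudocount of 0.1. Of 90 shares of a gene in a group, 89 stayed within their interval after thinning to 100000 reads and 34 at RPKM over 50. At RPKM over 1, 70 stayed within it, and 73 did with other non-neuronal cells left out. Neuronal markers only kept 72 of 90 within their intervals, and leaving out the reads of Gm42418 kept 90 of 90. Both of these last settings were chosen after seeing the data. No paired analysis was possible because no label ties a cell to an animal and no result comes from a test. The cause of these moves was not tested. Stage and dissociation kit cannot be told apart from any earlier stage to P90 and, by the methods, from E18.5 to P1, nor stage and spike-in from E15.5 to E18.5 and from P7 to P90.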
